A study of Homo sapiens with 17 samples.

Results

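The genes described here are 49 interferon-stimulated genes, chosen by symbol from the 58870 entries of a gene count table. Guanylate-binding protein, HLA and chemokine genes were left out of the set. The table covers MDA-MB-231, an established human triple-negative breast cancer line labelled as mesenchymal and basal B, grown in RPMI with foetal bovine serum and antibiotic. Every culture carried the same treatment label, TRAIL at 45 nM, and the cultures differed only in the time before RNA was taken: 0, 1, 3, 6, 12 or 24 h. TRAIL, a TNF-family ligand, binds death receptors on the cell surface and can trigger apoptosis. The submitters called the dose suboptimal and aimed to measure live cells. The submitters stated triplicates, and 17 libraries were analysed here, 3 at each time and 2 at 1 h. A culture left without TRAIL for the later times is not among these libraries, so time with TRAIL and time in culture cannot be told apart. One cell line was used, and nothing in the labels says whether replicates came from separate cultures, so p-values measure the spread between these samples, which may be technical.

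Interferons are secreted proteins that bind receptors on neighbouring cells and, through the JAK kinases, activate transcription factors of the STAT family. A complex that holds STAT2 and IRF9 binds the interferon-stimulated response element (ISRE), while STAT dimers bind the gamma-activated sequence (GAS). The genes that respond encode sensors of viral nucleic acid, enzymes that degrade RNA or stop translation, and proteins that block virus entry or release. Many of them also have a basal level in tumour cells, and some can be switched on directly by IRF1, IRF3 or NF-κB without interferon.

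The promoters of the members show these elements, and stretches of 11 are printed here because the results below turn on these genes or on their elements. Sequences are from RefSeq (GRCh38.p14), on the strand of the gene, with matches in capitals. The ISRE was searched as GAAA, any 2 bases and GAAA, the GAS as TTC, any 3 bases and GAA, and the κB element by its consensus, each on both strands, so that an ISRE on the other strand reads TTTC, any 2 bases and TTTC. Matches may overlap one another. The stretches of PARP9 and DTX3L (30 bases), IFITM3 (29 bases) and DDX58 (30 bases) lie wholly within exons annotated in GENCODE 29. The first 6 stretches hold ISRE matches, and that of DDX60 also a GAS match, in members that rose by 24 h. PARP9 and DTX3L share theirs.
IFIT1 (chr10:89392495-89392541, plus strand): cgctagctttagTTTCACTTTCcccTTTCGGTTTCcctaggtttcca
IFIT3 (chr10:89327829-89327893, plus strand): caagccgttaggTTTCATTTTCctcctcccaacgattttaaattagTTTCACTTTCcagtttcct
HERC5 (chr4:88456982-88457066, plus strand): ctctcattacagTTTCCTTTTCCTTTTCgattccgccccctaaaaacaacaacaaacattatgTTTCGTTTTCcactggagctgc
SAMD9 (chr7:93118094-93118127, minus strand): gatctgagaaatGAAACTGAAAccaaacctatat
DDX60 (chr4:168318819-168318888, minus strand): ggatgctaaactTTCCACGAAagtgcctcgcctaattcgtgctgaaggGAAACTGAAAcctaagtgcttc
PARP9 and DTX3L (chr3:122564322-122564351, minus strand): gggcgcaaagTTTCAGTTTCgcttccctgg
The next 3 hold ISRE matches, with a GAS match in IFI27, in members that fell by 6 h and were not called higher at 24 h as counted.
ISG15 (chr1:1013372-1013411, plus strand): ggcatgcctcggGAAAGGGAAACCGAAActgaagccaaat
IFITM3 (chr11:320885-320913, minus strand): gGAAAAGGAAActgttgaGAAACCGAAAc
IFI27 (chr14:94110616-94110662, plus strand): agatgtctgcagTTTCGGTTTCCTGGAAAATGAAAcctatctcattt
The last 2 hold κB matches. In IRF1 a GAS match precedes it, and in DDX58, the gene of RIG-I, no ISRE or GAS match was found in the window.
IRF1 (chr5:132490802-132490909, minus strand): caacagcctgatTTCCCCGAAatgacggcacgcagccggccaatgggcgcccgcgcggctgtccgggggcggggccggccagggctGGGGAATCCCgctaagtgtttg
DDX58 (chr9:32526253-32526282, minus strand): tcatttcctcGGAAAATCCCtgctttcccc

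RefSeq windows of 300 bases, from 250 before to 50 after an annotated start site, were matched for 39 of the 49 members. DHX58, IRF7, USP18, IFIT2, OAS2, OASL, IFITM2, MX2, TRIM22 and PML had no entry. An ISRE match was present in 26 of the 39 members (66.7%), against 4.38% of 27305 genes with a window. A GAS match was present in 33.3% of members and 9.38% of genes, and a κB match in 17.9% of members and 7.09% of genes. Members had 1.33 windows each and genes 1.29. A match describes letters and shows no binding. The plot of motif positions gives every match. The ISRE matches of TRIM21 and 1 of MX1 lay downstream of the start site, and IFIT5, EIF2AK2, IFITM1 and DTX3L each had one that spanned it.

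**Figure D1:**
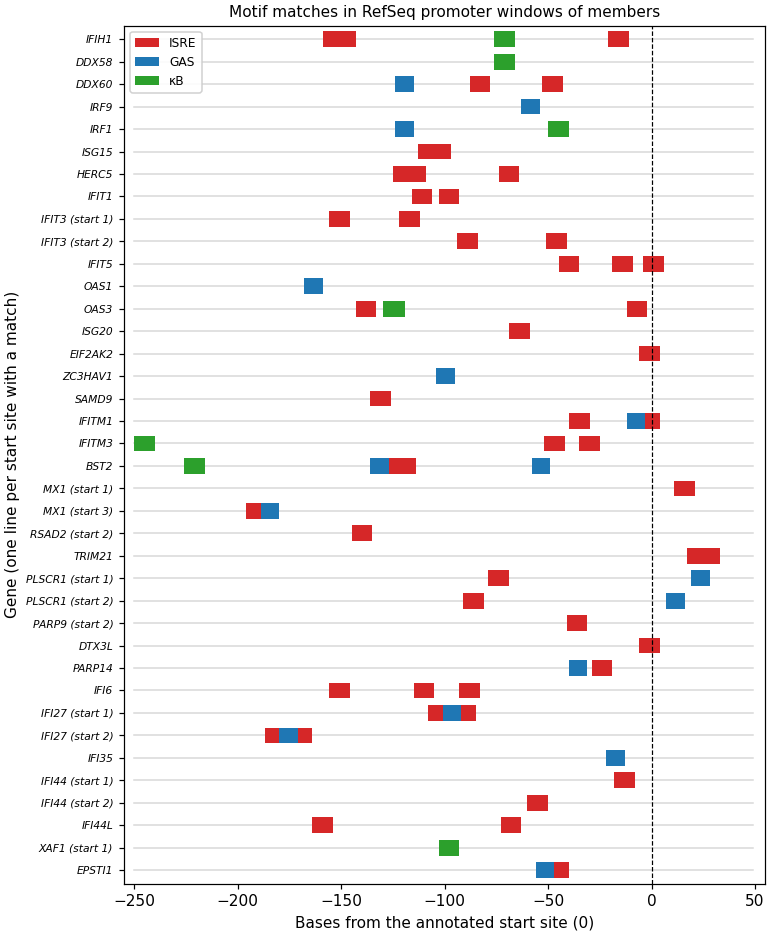
Matches to the ISRE (red), GAS (blue) and κB (green) motifs in RefSeq promoter windows of members, by distance in bases from the annotated start site (dashed line at 0). One line is drawn per start site with at least 1 match, and an ISRE match was present in 26 of the 39 members with a window.

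Libraries held 13731520 to 19234924 counts. The line's markers were present (VIM median 3350 CPM, CD44 1296 CPM, KRT18 662 CPM), where CPM are counts scaled to a common library size by TMM. ESR1 had at most 2 counts and PGR at most 1, while EPCAM, which was listed as absent, ranged from 13.1 to 19.3 CPM. Leukocyte markers summed to between 1.14 and 2.29 CPM per library, with CD3E at 0, and the dendritic cell markers LILRA4 and CLEC4C were at 0 in every library. The endothelial markers PECAM1 and CDH5 summed to between 1.06 and 1.93 CPM at 0 h and between 2.80 and 3.98 CPM at 24 h, with CDH5 at no more than 2 counts. Mitochondrial transcripts took between 5.53% and 8.37% of counts at 0 h and between 3.66% and 4.14% at 24 h. The part of these shares and marker sums in the results was not tested. The relative counting of long transcripts differed between times, without a steady trend. The slope of log2 level on log2 transcript length was -0.07 to -0.01 at 0 h, -0.10 to -0.03 at 1 h and -0.14 to -0.06 at 3 h. It was 0.01 to 0.10 at 6 h, -0.03 to 0.08 at 12 h and 0.02 to 0.14 at 24 h. Replicates 2 and 3 were closer to each other at 6 h and at 24 h (chi-square per gene 1.57 and 1.67) than any other pair (3.44 to 12.3), and were kept apart. How far they are independent is not known.

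Of the 49 members, 48 had enough counts to be tested, and CMPK2, with 3 to 10 counts per library, was not. At the start, levels per transcript length ranged widely. IFITM3 was highest at 603 ± 17.8 TPM (SD, n = 3), followed by BST2 at 222 ± 8.42, ISG15 at 219 ± 7.97 and IFI27 at 217 ± 5.57, and these 3 were within their spread of one another. IFI44L (0.235 ± 0.072 TPM), EPSTI1, RSAD2, OAS1, MX2 and USP18 were below 2 TPM, as was CMPK2. Every member thus had counts at 0 h. In bulk RNA, fewer cells making a transcript and less of it per cell cannot be told apart, and this holds for every level below.

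The median of the members fell first and rose later, and only some members did both. A gene was called when its adjusted p-value, from edgeR's quasi-likelihood test with Benjamini-Hochberg adjustment over all 15365 genes tested, was below 0.05. At 1 h against 0 h no member was called in either direction by edgeR, DESeq2 or limma-voom (0.260% of all genes were called higher and 0.0521% lower), and 1 member, IRF1, had an unadjusted p below 0.05 in edgeR. At 3 h 2 members were higher and 7 lower, where 9.04% of all genes were called higher and 8.71% lower. At 6 h 5 were higher and 20 lower, that is 10.4% and 41.7% of members, against 16.9% and 13.2% of all genes. At 12 h 9 were higher and 1 lower (background 5.96% and 6.48%). At 24 h 30 were higher and 3 lower, or 62.5% and 6.25% of members, against 18.0% and 17.1% of all genes. Only IRF1, IFIT1, IFIT2, IFIT3, OAS2, OASL, MX1, PARP9 and IFI44 were called both lower at 6 h and higher at 24 h. DDX58, PARP14, DTX3L, PML and TRIM21 were called higher at both times. The median log2 fold change of the 48 members was 0.04, -0.09, -0.23, 0.10 and 0.37 at the 5 times in turn, while that of all genes lay between -0.0218 and -0.00175.

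**Figure D2:**
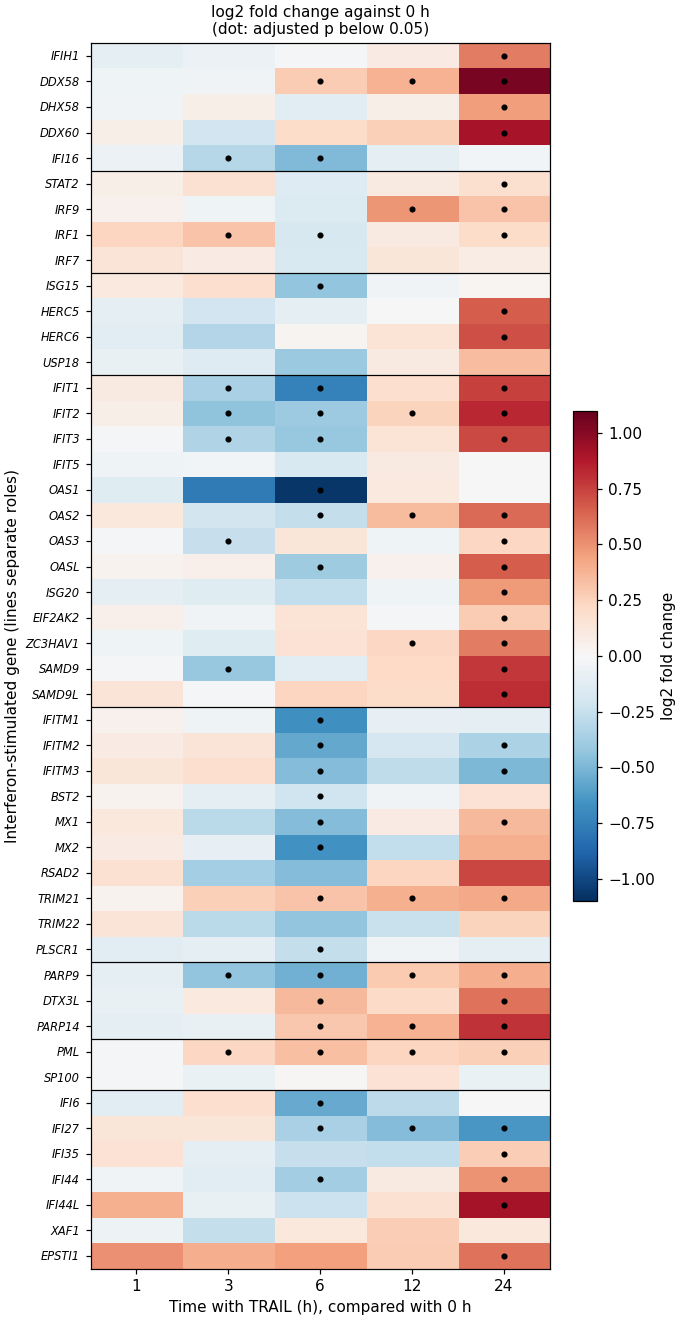
Colour gives the log2 fold change against 0 h of the 48 members tested (rows, grouped by role) at 1, 3, 6, 12 and 24 h (columns), and a black dot marks an adjusted p below 0.05. Of 48 members, 20 carry a dot for a lower level at 6 h and 30 for a higher level at 24 h.

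Among the steps between neighbouring times, that from 6 to 12 h was the first in which calls of members were mostly rises. From 1 to 3 h none was called higher and 6 lower (background 3.17% and 2.56%). From 3 to 6 h 11 were higher and 13 lower (22.9% and 20.3% of all genes, close to the 22.9% and 27.1% of members). From 6 to 12 h 20 members rose, 41.7% of them against 8.70% of all genes, and none fell, against 11.9%. This step was not shared by all members that were higher at 24 h. DDX58, DDX60, IFIH1, HERC5, HERC6, PARP14, SAMD9L and ZC3HAV1 were not called in it (log2 fold change -0.03 to 0.12). From 12 to 24 h 23 rose and 1, SP100, fell (background 6.42% and 5.60%). The mean level was lowest at 6 h in 27 of 48 members (56.2%, against 19.3% of all genes) and highest at 24 h in 32 (66.7%, against 22.7%). Over all times 43 of the 48 members differed by the F-test (89.6%, against 64.2% of all genes), and IRF7, USP18, IFIT5, PLSCR1 and EPSTI1 did not pass it.

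**Figure D3:**
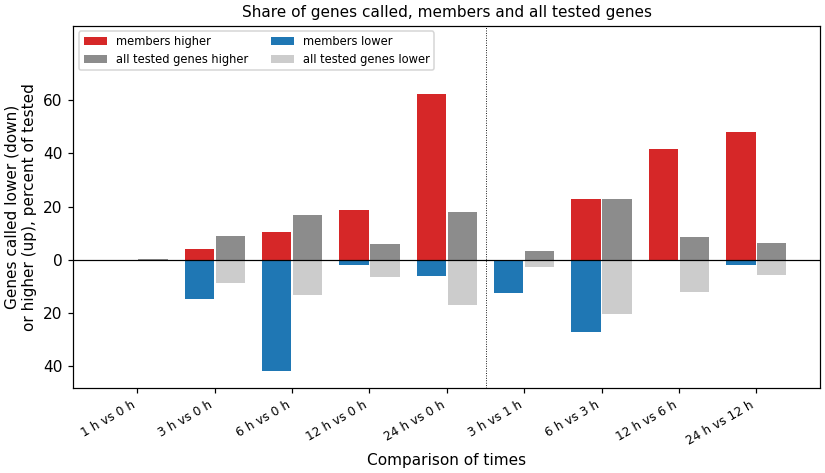
Bars give the percentage of tested genes called higher (upward) or lower (downward) in each comparison, for the 48 members (red and blue) and for all 15365 genes tested (grey). The members exceed all genes among those called lower at 3 h, at 6 h, from 1 to 3 h and, by less, from 3 to 6 h. They also do so among those called higher at 12 h, at 24 h, from 6 to 12 h and from 12 to 24 h.

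Changes were small in size. Against 0 h and as counted, DDX58 alone was called higher with a change of at least 2-fold at 24 h (0.547% of all genes). OAS1 alone was lower by as much at 6 h (1.05%). OAS1 was also the 1 member with such a rise from 6 to 12 h (0.703% of all genes). After a correction for transcript length and GC content, described below, DDX58 stood at 0.88 at 24 h and OAS1 at -0.97 at 6 h. When the close replicates 2 and 3 were averaged at 6 h and 24 h, 14 members were lower at 6 h (7.15% of all genes). Under this averaging 23 were higher at 24 h (11.2%). Of 151 calls over all comparisons 41 were then lost, more than under any other alternative. The count of members lower at 6 h was 12 without 6 h replicate 3 (6.71% of all genes). The number higher at 6 h was 2 without 6 h replicate 2 (11.2%) and 3 without 0 h replicate 1 (11.4%). The number higher at 12 h was 5 without 0 h replicate 2 (2.95% of all genes) and 5 without 12 h replicate 2 (2.13%). The number higher at 3 h was 1 without 0 h replicate 2 (5.16%) or 0 h replicate 3 (4.87%). It was also 1 without 3 h replicate 1 (5.73%) or 3 h replicate 2 (5.42%). From 6 to 12 h 13 were higher without 6 h replicate 3 (4.67% of all genes). From 12 to 24 h 15 were higher without 12 h replicate 1 (2.21%) or without 24 h replicate 2 (2.31%). From 1 to 3 h 2 were lower without 3 h replicate 1 or without 3 h replicate 2 (1.38% and 1.52% of all genes). From 3 to 6 h the number higher was 6 without 3 h replicate 1 (19.5% of all genes) and 4 without 3 h replicate 2 (17.7%). It was 5 without 6 h replicate 2 (18.6%) and 4 without 6 h replicate 3 (17.9%).

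Transcripts of the interferon genes examined were hardly seen. Of 8 interferon genes examined, none had enough counts to be tested. IFNA1 was the only alpha gene among them, and other alpha genes were not examined. IFNB1, IFNA1, IFNE and IFNG, which encode interferon beta, alpha, epsilon and gamma, had 0 counts in all 17 libraries, where 3 counts, the upper limit that a count of 0 allows, correspond to 0.156 to 0.218 CPM. IFNK and IFNL2 had 1 count in all and IFNL3 had 2. IFNL1, a type III interferon, had 15 counts in all, at most 4 in a library, spread over 8 libraries from 1 to 24 h, and 0 in the 3 libraries at 0 h. These limits cover counting error only, and poly(A) selection was part of the library kit.

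Genes of receptors and signal carriers were present, and several rose. IFNAR1, a chain of the type I receptor, went from 50.8 CPM at 0 h to 65.3 CPM at 6 h and 62.9 CPM at 24 h (log2 fold change 0.36 and 0.31). IFNGR2, a chain of the gamma receptor, was higher at 3 h (69.9 to 102 CPM, 0.54) and 6 h (0.35). IFNGR1 and IL10RB were higher at 24 h by 0.22 and 0.30, IL10RB after a lower level at 3 h (-0.26). Counts of IFNGR2 were not whole in 15 libraries and those of IL10RB in 10, so their levels are uncertain. JAK1 rose from 6 h on, to 0.36 at 24 h. STAT3 rose at 6, 12 and 24 h (0.55, 0.24 and 0.53). TYK2 was lower at 24 h (-0.22). The whole list of 35 pathway genes also holds the interferon, sensing, regulator and ISG15 enzyme genes. Of its 27 genes tested, 10 were higher and 7 lower at 6 h (16.9% and 13.2% of all genes). At 24 h 11 were higher and 1 lower (18.0% and 17.1%). Within it the 6 receptor genes gave 2 higher and 0 lower at 6 h, and the 5 signal carriers 3 and 0. At 24 h receptors gave 3 and 0, and signal carriers 3 and 1.

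The arm that senses nucleic acid ahead of interferon did not move in 1 direction. TLR3, an endosomal RNA sensor, fell from 3.78 to 1.86 CPM at 3 h (-1.02) and to 2.19 CPM at 6 h (-0.78), while its adaptor TICAM1 rose (0.53 and 0.41). cGAS (listed as MB21D1), a cytosolic DNA sensor, rose from 50.0 to 77.6 CPM at 3 h (0.63) and stood at 68.5 CPM at 6 h (0.45). STING (listed as TMEM173), which acts behind it, was lower at 3 h (-0.44) and 6 h (-0.24) and higher at 24 h (0.34). MAVS, the adaptor of the RIG-I family, rose at 6, 12 and 24 h (0.26, 0.21 and 0.40), and so did the kinase TBK1 (0.23, 0.28 and 0.24). The related kinase IKBKE reached 27.4 CPM at 24 h from 15.8 CPM (0.79). IRF3 was lower at 6 h (-0.24) but did not pass the F-test over all times (adjusted p = 0.0844). Its counts were not whole in 17 libraries, so its level is uncertain. IRF2 was lower at 3 h (-0.36) and higher from 6 h on (0.39, 0.44 and 0.44). Among brakes on the pathway, SOCS3 fell at 3 h (-0.37) and 6 h (-0.62), the phosphatase gene PTPN6 fell at 6 h (-0.78), and SOCS1 was higher at 3 h than at 1 h (2.43 to 5.09 CPM, 1.07). The 1 h libraries of SOCS1 measured 1.46 and 3.40 CPM, below the 0 h libraries (4.23, 4.42 and 3.92), and SOCS1 was not called against 0 h at 3 h (0.28).

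Sensors among the members rose late, with 4 of 5 higher at 24 h, where 18.0% of all genes were. DDX58 encodes RIG-I, a cytosolic RNA helicase that detects viral RNA ends (chr9:32455705-32526324 on GRCh38, minus strand). It measured 31.3, 33.2 and 35.9 CPM at 0 h, then 34.3 and 30.4 at 1 h, 34.2, 29.7 and 33.8 at 3 h, 37.3, 41.7 and 42.6 at 6 h, 39.6, 47.9 and 43.0 at 12 h and, after 24 h, 63.1, 72.3 and 71.3. The 6 h libraries were all above those at 0 h, and the 24 h libraries all above those of every other time. The log2 fold change was 0.28 ± 0.0880 (SE) at 6 h (adjusted p = 0.0227), 0.38 ± 0.0874 at 12 h (adjusted p = 0.00799) and 1.04 ± 0.0862 at 24 h (adjusted p = 1.0e-07), a 2.06-fold higher level. DDX60, a helicase that assists RIG-I, measured 15.2, 16.0 and 17.1 CPM at 0 h and 29.6, 31.2 and 29.6 CPM at 24 h (0.90 ± 0.113, adjusted p = 1.6e-05). IFIH1, which encodes the long double-stranded RNA sensor MDA5, went from 14.0, 11.3 and 14.8 CPM to 19.6, 20.3 and 19.5 CPM (0.57 ± 0.111, adjusted p = 8.6e-04). DHX58, the regulatory helicase LGP2, was higher by 0.46, a call lost without 24 h replicate 1 (adjusted p = 0.0539). IFI16, a DNA sensor, took another course: it fell from between 130 and 147 CPM at 0 h to between 111 and 116 CPM at 3 h (-0.32) and to 103, 100 and 98.4 CPM at 6 h (-0.48 ± 0.0542, adjusted p = 4.3e-06), and stood at -0.03 at 24 h. The 6 h call of DDX58 was lost without 0 h replicate 1, 0 h replicate 2, 6 h replicate 2 or 6 h replicate 3, and its 12 h call without 12 h replicate 2, with adjusted p up to 0.114 and 0.0631 over the alternatives.

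The transcription factors rose by little. IRF1, which can act without interferon, measured 58.5, 62.0 and 67.8 CPM at 0 h, 72.4 and 75.1 at 1 h, 75.1, 81.4 and 77.4 at 3 h and, after 6 h, 55.7, 56.3 and 54.3. It was the highest at 3 h (0.31 ± 0.0665, adjusted p = 0.00329) and then fell below the 0 h libraries at 6 h (-0.18, adjusted p = 0.0488), so that the step from 3 to 6 h was -0.49 (adjusted p = 3.9e-05). IRF9 was highest at 12 h, with 18.2, 13.8 and 17.8 CPM against 12.0, 11.2 and 12.1 at 0 h (0.49 ± 0.111, adjusted p = 0.00754) and, after 24 h, 15.6, 14.6 and 13.7 (0.32). STAT2 was 0.18 higher at 24 h (adjusted p = 0.0495), with 45.0 to 47.7 CPM against 39.7 to 43.5, and IRF7 was not called against 0 h as counted (largest value -0.17 at 6 h). After correction for transcript length and GC content, IRF7 was higher at 12 h (0.38, adjusted p = 0.00583) and 24 h (0.38, adjusted p = 0.00277). At 24 h 3 of these 4 were thus called higher (18.0% of all genes), none by more than 0.32. The 24 h call of STAT2 was lost in 13 of the 17 fits that left out 1 library, that of IRF9 in 5 and that of IRF1 in 3, with adjusted p up to 0.140, 0.107 and 0.124, and the 6 h call of IRF1 in 12 with adjusted p up to 0.208. Counts of IRF1 and IRF9 were not whole in any library, which means that fragments were divided between these and other genes, so their levels are uncertain.

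The ISG15 system split at 24 h as counted. ISG15, a ubiquitin-like protein that is attached to other proteins, fell at 6 h, with 69.6, 58.7 and 58.2 CPM against 90.4, 83.0 and 78.8 at 0 h (-0.44 ± 0.117, adjusted p = 0.0104), and stood at 92.9, 80.4 and 83.2 CPM at 24 h (0.02 ± 0.115, adjusted p = 0.888). Its transcript is the shortest of all members (674 bases), and after correction for length and GC content it was higher at 24 h (0.48, adjusted p = 2.1e-07). HERC5, the ligase that attaches ISG15, and its neighbour on chromosome 4, HERC6, rose. HERC5 measured 21.2, 22.2 and 25.8 CPM at 0 h, 21.4, 21.2 and 21.3 at 6 h and, after 24 h, 36.7, 35.0 and 38.1 (0.67 ± 0.0846, adjusted p = 1.7e-05). HERC6 measured 13.7, 14.9 and 16.7 CPM at 0 h and 24.8, 24.7 and 24.4 CPM at 24 h (0.71 ± 0.104, adjusted p = 7.1e-05). In both, every 24 h library was above every library of the other times. USP18, which removes ISG15 and restrains the type I receptor, had 19 to 43 counts and was not called. The genes of the activating and conjugating enzymes, UBA7 and UBE2L6, were lower at 6 h (-0.57 and -0.26). The 6 h call of ISG15 was lost without 0 h replicate 1 or without 6 h replicate 3, and the value went to -0.11 (adjusted p = 0.106) after the same correction.

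The largest role group holds 13 genes whose products bind or degrade RNA or stop translation, and 11 of them were higher at 24 h (84.6%, against 18.0% of all genes), 6 were lower at 6 h (46.2%, against 13.2%) and 5 were lower at 3 h (38.5%, against 8.71%). The IFIT genes, neighbours on chromosome 10 whose proteins bind viral RNA ends, gave 3 of the calls at each of these times. IFIT1 (chr10:89392546-89406486, plus strand) measured 49.5, 43.8 and 49.0 CPM at 0 h, 48.7 and 52.8 at 1 h, 37.9, 38.1 and 35.2 at 3 h, 28.4, 27.3 and 29.4 at 6 h, 52.3, 56.0 and 53.6 at 12 h and, after 24 h, 85.3, 78.8 and 75.7. The libraries at 3, 6, 12 and 24 h did not overlap those at 0 h, though 12 h was not called. The log2 fold change was -0.36 ± 0.0703 at 3 h (adjusted p = 0.00183), -0.74 ± 0.0708 at 6 h (adjusted p = 6.3e-07) and 0.75 ± 0.0668 at 24 h (adjusted p = 2.8e-07). From 6 to 12 h alone it rose by 0.93 (adjusted p = 4.2e-08).

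IFIT2 and IFIT3 were also lower at 3 and 6 h and higher at 24 h, without a called step from 3 to 6 h (0.05 and -0.09, against -0.38 in IFIT1). IFIT3 measured 89.7, 92.9 and 97.8 CPM at 0 h, 66.9, 72.8 and 70.3 at 6 h (-0.42) and, after 24 h, 159, 155 and 149 (0.72 ± 0.0685, adjusted p = 6.6e-07). IFIT2 measured 49.5, 49.8 and 50.3 CPM at 0 h, 36.3, 34.3 and 39.1 at 3 h (-0.45), 37.7, 37.3 and 38.6 at 6 h (-0.40) and, after 24 h, 87.6, 90.1 and 87.4 (0.83 ± 0.0646, adjusted p = 4.5e-08). Counts of IFIT2 were not whole in any library. IFIT5, the fourth gene of the cluster, stayed between 46.5 and 59.6 CPM in all 17 libraries and was not called against 0 h as counted.

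The OAS genes make the messenger that activates RNase L, and OASL is a relative without that activity. OASL fell from 26.5, 25.9 and 23.4 CPM at 0 h to 20.9, 19.3 and 17.9 at 6 h (-0.39 ± 0.0881, adjusted p = 0.00313) and rose to 43.6, 39.5 and 37.4 at 24 h (0.67 ± 0.0835, adjusted p = 1.4e-05). OAS2 went from 23.7, 21.1 and 22.9 CPM to 18.5, 19.0 and 18.9 at 6 h (-0.27), 28.9, 29.1 and 28.3 at 12 h (0.35) and, after 24 h, 35.8, 34.3 and 33.8 (0.62 ± 0.0789, adjusted p = 1.8e-05). OAS1 had only 8 to 31 counts per library. It measured 1.31, 1.62 and 1.56 CPM at 0 h and, after 6 h, 1.01, 0.531 and 0.594 (-1.07 ± 0.300, adjusted p = 0.0114), and stood at 0.00 at 24 h. The 6 h call of OAS1 was lost without 6 h replicate 2 or 6 h replicate 3 (adjusted p up to 0.0626 over the alternatives), and that of OAS2 without 0 h replicate 1, 0 h replicate 3, 6 h replicate 2 or 6 h replicate 3 (up to 0.0903). OAS3 was lower at 3 h (-0.26) and higher at 24 h (0.23), and both calls were lost in several fits that left out 1 library (4 and 3 of 17).

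SAMD9 and SAMD9L, neighbours on chromosome 7 that restrain translation, rose at 24 h. SAMD9 measured 23.5, 23.3 and 26.5 CPM at 0 h, 18.5, 16.9 and 19.4 at 3 h (-0.42) and, after 24 h, 35.7, 45.9 and 44.2 (0.78 ± 0.103, adjusted p = 2.6e-05). SAMD9L measured 24.0, 21.8 and 22.7 CPM at 0 h and, after 24 h, 34.4, 44.4 and 41.7 (0.81 ± 0.0919, adjusted p = 4.8e-06), with no fall at 3 h (-0.02). In both genes replicate 1 at 24 h was the lowest of the 3, yet above every 0 h library. ZC3HAV1, the zinc-finger antiviral protein that targets CG-rich RNA, was higher at 12 h (0.23) and 24 h (0.56), EIF2AK2, the RNA-activated kinase PKR, was higher at 24 h (0.28), and so was the exonuclease gene ISG20 (0.47). The 3 h call of SAMD9 was lost without 0 h replicate 3 or 3 h replicate 2 (adjusted p up to 0.0780), and the 12 h call of ZC3HAV1 in 7 of the 17 fits that left out 1 library. The 24 h call of EIF2AK2 was lost without 24 h replicate 2, and that of ISG20 without 0 h replicate 2, 0 h replicate 3 or 24 h replicate 2, with adjusted p up to 0.570 and 0.0806 over the alternatives.

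**Figure D4:**
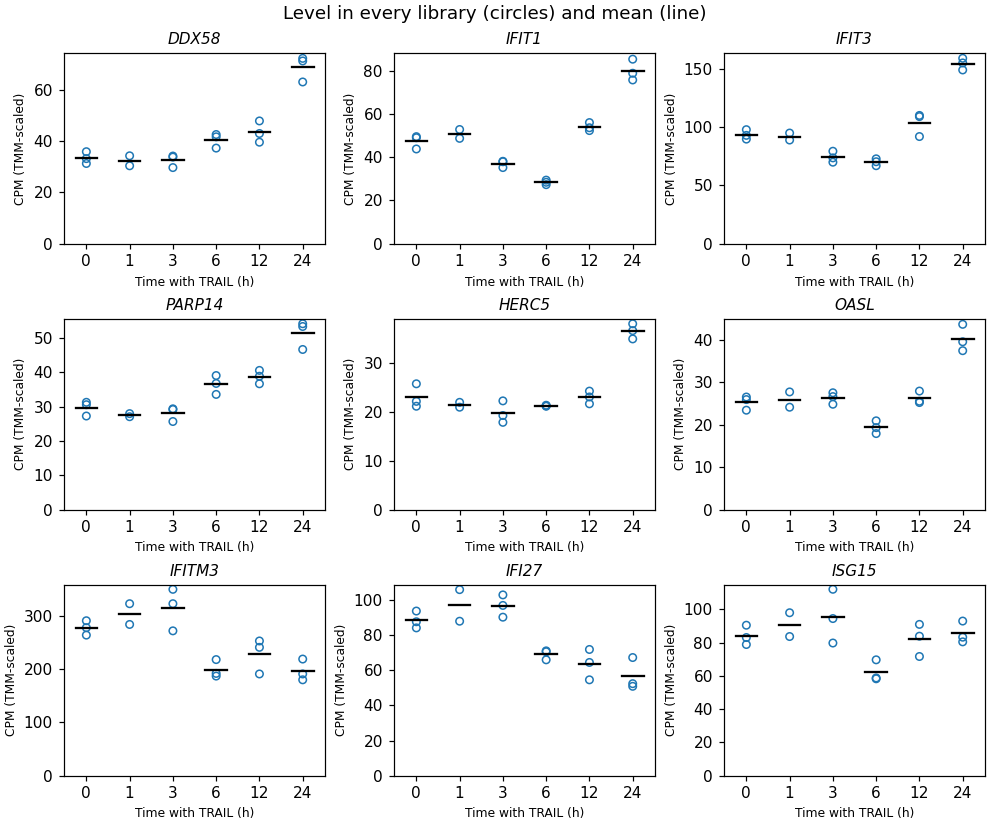
Level in TMM-scaled CPM (vertical axis, from 0) of 9 members in every library (circles) and their mean (line) at 0, 1, 3, 6, 12 and 24 h. DDX58, IFIT1, IFIT3, PARP14, HERC5 and OASL are highest at 24 h, while IFITM3 and IFI27 are lower at 24 h than at 0 h and ISG15 is lowest at 6 h.

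Of the 10 tested genes whose products block virus entry, replication or release, 7 were lower at 6 h (70.0%, against 13.2% of all genes) and 1, TRIM21, was higher. At 24 h 2 were higher, MX1 and TRIM21, and 2 lower, IFITM2 and IFITM3, shares near those of all genes (18.0% and 17.1%). The IFITM proteins stop viral fusion at membranes, and their genes lie side by side on chromosome 11. IFITM1 measured 29.6, 30.4 and 30.3 CPM at 0 h, 29.7, 29.7 and 27.8 at 3 h, 20.7, 17.8 and 18.0 at 6 h (-0.68 ± 0.0931, adjusted p = 4.2e-05) and, after 24 h, 31.2, 25.8 and 26.9 (-0.10). IFITM3 measured 291, 278 and 264 CPM at 0 h, 323, 350 and 272 at 3 h, 218, 192 and 187 at 6 h (-0.48 ± 0.109, adjusted p = 0.00389) and, after 24 h, 219, 180 and 191 (-0.50 ± 0.109, adjusted p = 0.00249). IFITM3 thus stayed low at 24 h, where IFITM1 overlapped its start level. IFITM2 was lower at both times (-0.56 and -0.35), the 24 h call being lost without 24 h replicate 3. Counts of IFITM1 were not whole in 17 libraries and those of IFITM2 and IFITM3 in 16, and the annotated spans of IFITM1 and IFITM2 overlap, so reads may be divided among them.

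MX1 and MX2 encode GTPases that trap viral particles. MX2, with 26 to 64 counts, measured 2.18, 2.87 and 3.11 CPM at 0 h and, after 6 h, 1.90, 1.86 and 1.40 (-0.67 ± 0.211, adjusted p = 0.0216), a call lost without 0 h replicate 2, 0 h replicate 3 or 6 h replicate 3 (adjusted p up to 0.118). MX1 fell at 6 h (-0.48) and was higher at 24 h (0.36), with 15.4, 14.5 and 13.3 CPM against 10.8, 11.0 and 12.0. BST2, or tetherin, which holds budding virus on the cell, was lower at 6 h (-0.22), as was PLSCR1 (-0.27), calls lost without 6 h replicate 3 and without 6 h replicate 2. TRIM21, a receptor for antibody-coated virus, was higher at 6, 12 and 24 h (0.31, 0.39 and 0.41), and its 6 h call was lost without 0 h replicate 3, 6 h replicate 1 or 6 h replicate 2 (adjusted p up to 0.0977). RSAD2, which encodes viperin, had 9 to 55 counts, stood at 0.73 at 24 h and missed the threshold (adjusted p = 0.0570), and TRIM22 was not called as counted.

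PARP9 and DTX3L form a complex of an ADP-ribosyltransferase and a ubiquitin ligase, and start head to head on chromosome 3. The nearest RefSeq starts lie 38 bases apart, at 122564300 and 122564338, with the 1 shared ISRE match between 122564332 and 122564341. A further RefSeq start of PARP9 lies at 122564784. The annotated gene spans overlap (122527924-122564577 for PARP9, 122564238-122575203 for DTX3L), and each gene had counts that were not whole in 4 libraries. Reads may thus be divided between them. As counted, the levels of PARP9 and DTX3L separated at 3 and 6 h. PARP9 measured 12.3, 12.3 and 11.8 CPM at 0 h, 11.3 and 11.3 at 1 h, 9.27, 9.16 and 8.46 at 3 h, 7.58, 9.09 and 8.47 at 6 h, 14.9, 15.3 and 14.3 at 12 h and, after 24 h, 16.0, 15.4 and 16.5. DTX3L measured 24.0, 24.0 and 26.3 CPM at 0 h, 25.1 and 21.7 at 1 h, 26.3, 23.8 and 29.8 at 3 h, 29.3, 33.2 and 32.6 at 6 h, 28.5, 29.5 and 27.8 at 12 h and, after 24 h, 35.0, 41.1 and 36.1. At 6 h PARP9 was lower (-0.53 ± 0.0885, adjusted p = 2.6e-04) and DTX3L higher (0.36 ± 0.0897, adjusted p = 0.00624), with no overlap with 0 h in either gene. At 24 h both were higher (0.40 and 0.60). The log2 ratio of PARP9 to DTX3L was -1.03 ± 0.11 (SD, n = 3) at 0 h, -1.56 ± 0.23 at 3 h, -1.92 ± 0.05 at 6 h, then -0.95 ± 0.01 at 12 h. This ratio was chosen after its values were seen. A two-sided exact permutation test against 0 h at each of the 5 later times, unadjusted, gave p = 0.1 at 3 h and at 6 h, the smallest that 3 libraries against 3 allow, and higher values at the others. After correction for length and GC content the 6 h values were -0.60 (adjusted p = 3.3e-05) and 0.19 (adjusted p = 0.0257).

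PARP14, a further ADP-ribosyltransferase gene, measured 27.3, 31.3 and 30.6 CPM at 0 h, 33.6, 39.1 and 36.8 at 6 h (0.30), 36.7, 40.6 and 38.9 at 12 h (0.38) and, after 24 h, 46.7, 54.2 and 53.4 (0.79 ± 0.0817, adjusted p = 1.9e-06), so that all libraries from 6 h on lay above those at 0 h. Its 6 h call was lost without 0 h replicate 1 or 6 h replicate 2 (adjusted p up to 0.195 over the alternatives). PML, the organiser of PML nuclear bodies, was higher from 3 h on (0.23, 0.33, 0.24 and 0.26), with 60.7 to 67.1 CPM at 0 h and 76.8 to 80.6 CPM at 6 h. Its 3 h and 12 h calls were each lost in 4 of the 17 fits that left out 1 library (adjusted p up to 0.125 and 0.101). SP100, a component of the same bodies, was not called against 0 h as counted.

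Among the remaining 7 induced genes, 4 were called higher and 1, IFI27, lower at 24 h (18.0% and 17.1% of all genes). This small membrane protein gene measured 93.8, 87.7 and 84.2 CPM at 0 h, 97.0, 103 and 90.3 at 3 h, 70.6, 71.1 and 66.0 at 6 h (-0.36), 71.9, 54.6 and 64.5 at 12 h (-0.48) and, after 24 h, 67.3, 50.9 and 52.4 (-0.64 ± 0.106, adjusted p = 3.0e-04). As counted, it was the only member called lower at 12 h. IFI6, of the same family, was lower at 6 h (-0.56) and stood at 0.01 at 24 h. IFI44 fell at 6 h (-0.38) and rose to 29.8, 30.4 and 29.7 CPM at 24 h from 21.2, 20.7 and 22.0 (0.49 ± 0.0764, adjusted p = 1.2e-04). IFI44L, its neighbour on chromosome 1, had 8 to 28 counts and measured 0.996, 0.872 and 0.498 CPM at 0 h and, after 24 h, 1.41, 1.74 and 1.33 (0.91 ± 0.307, adjusted p = 0.0252). EPSTI1, with 22 to 43 counts, measured 1.37, 1.56 and 1.68 CPM at 0 h and, after 24 h, 2.28, 2.23 and 2.47 (0.60 ± 0.218, adjusted p = 0.0381), and IFI35 was higher by 0.27. The 24 h calls of IFI44L, EPSTI1 and IFI35 were lost in 2, 5 and 4 of the 17 fits that left out 1 library, with adjusted p up to 0.110, 0.131 and 0.178. The 6 h calls of IFI27 and IFI6 were lost without 0 h replicate 1 or 6 h replicate 3, and that of IFI6 also without 0 h replicate 2. XAF1 was not called against 0 h.

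The slope of level on transcript length differed between times in these libraries, and members differ widely in length. Each call of a member was therefore also made after removing a trend on length and GC content from every library. Calls of genes outside the 49 members were not checked in this way, nor by leaving out libraries. The short transcripts of BST2, ISG15, IFI27 and IFI6 then lost their 6 h calls (to -0.01, -0.11, -0.10 and -0.32), and DDX58 and PARP14, with long transcripts, lost theirs (to 0.14 and 0.10). SAMD9 (-0.33), IFIT5 (-0.30), STAT2 (-0.18) and TRIM22 (-0.49) were called lower at 6 h only after the correction. The number lower was thus again 20, against 12.0% of all genes. IFIT1 stayed at -0.70 and IFITM3 was lower by -0.24 (adjusted p = 3.8e-04). At 24 h 25 of the 30 members called higher were still called, and EIF2AK2, EPSTI1, IFI44L, OAS3 and STAT2 were not. Several rises of long transcripts became smaller. DDX58 went from 1.04 to 0.88, below 2-fold, and DDX60 from 0.90 to 0.69. SAMD9 went from 0.78 to 0.56, SAMD9L from 0.81 to 0.61, PARP14 from 0.79 to 0.54 and ZC3HAV1 from 0.56 to 0.33. IFIT1, with a shorter transcript, went from 0.75 to 0.77. IFITM2 was no longer called lower at 24 h (-0.05). Another 4 members were called higher at 24 h only after the correction: ISG15 (0.48), BST2 (0.40), IRF7 (0.38) and IFITM1 (0.16). In all, 29 members were then called higher, against 17.7% of all genes. IFI27 and IFITM3 were lower by less (-0.33 and -0.21). SP100 was called lower at 24 h only after the correction (-0.14, adjusted p = 0.0296). Under all 31 alternatives, 20 of the 30 members higher at 24 h and 11 of the 20 lower at 6 h were called. The 20 were DDX58, DDX60, IFIH1, HERC5, HERC6, IFIT1, IFIT2, IFIT3, OAS2, OASL, SAMD9, SAMD9L, ZC3HAV1, MX1, TRIM21, PARP9, DTX3L, PARP14, PML and IFI44. The 11 were IFI16, IFIT1, IFIT2, IFIT3, OASL, IFITM1, IFITM2, IFITM3, MX1, PARP9 and IFI44.

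**Figure D5:**
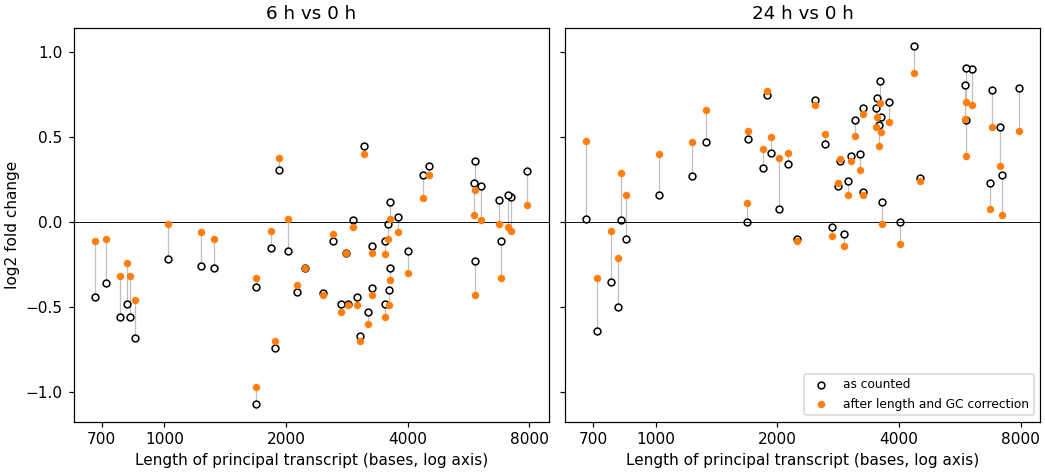
log2 fold change against 0 h (vertical axis) of the 48 members at 6 h (left) and 24 h (right), by length of the principal transcript in bases (log axis), as counted (open circles) and after correction for length and GC content (orange). Grey lines join the same gene; ISG15 at 6 h moves from -0.44 to -0.11, and IFIT1 from -0.74 to -0.70.

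Genes most like the members were set beside them. Of 4 guanylate-binding protein genes tested, which gamma interferon induces, 3 were higher and 1 lower at 6 h (16.9% and 13.2% of all genes), 3 were higher at 12 h (5.96%) and 3 at 24 h (18.0%). GBP4 rose from 4.75 to 12.6 CPM at 24 h (1.41), more than any member, whereas GBP2 was lower at 6 h (-0.68). Among genes of MHC class I presentation, TAP1 was higher at 24 h (0.33), while HLA-B, HLA-C, HLA-F and B2M were lower (-0.42, -0.33, -0.42 and -0.18). HLA-B, HLA-C and HLA-F were also lower at 12 h (-0.44, -0.32 and -0.39). Counts of TAP1, HLA-B, HLA-C and HLA-F were not whole in 17 libraries, so their levels are uncertain. B2M did not pass the F-test over all times (adjusted p = 0.0897). These are values side by side, and the difference between the sets was not tested.

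The promoter matches were set beside the calls. At 24 h an ISRE match was present in 17 of 25 members called higher that had a window (68.0%) and in 7 of 11 not called (63.6%). At 6 h it was present in 12 of 15 called lower (80.0%) and in 11 of 19 not called (57.9%). A κB match was present in 4 of the 25 members higher at 24 h (16.0%) and in 2 of the 11 not called (18.2%). These are descriptions without a test. The 3 members printed above that fell at 6 h and were not called higher at 24 h as counted, ISG15, IFITM3 and IFI27, hold ISRE matches as IFIT1, IFIT3 and HERC5 do.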

How the data were processed

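The authors deposited expected counts, RSEM gene estimates going by the file name. The submitters' processing notes name cutadapt 1.18, STAR 2.7.0f and build hg38. The RSEM version, annotation release and strand setting are not given in the sources used here, so overlapping genes may exchange counts. Per the labels' protocols, a stranded mRNA kit and paired-end reads were used. Of the deposited values, 10.8% were not whole. Of 58870 entries, 58597 matched GENCODE 29 by unversioned identifier. All 17 columns had a sample.

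Counts were rounded, filtered with filterByExpr and scaled by TMM, and edgeR 4.0.16 (R 4.3.3) fitted a robust quasi-likelihood model over all libraries with 1 mean for each time. Every adjusted p-value printed for a gene is edgeR's, over 15365 genes. SE came from the coefficient and the F statistic. CPM and TPM (principal GENCODE 29 transcript lengths) were computed from the counts. The common coefficient of variation was 7.06%. Scripts were tested on simulated data. Alternatives were other scalings, filters and tools (DESeq2 1.42.0, limma 3.58.1), a replicate block, a length and GC correction, averaging of close replicates, and leaving out each library. All members could be named. For the 20 with the largest called change, values of single libraries were given at 0 h and at 1 or more later times. The same was done for some others, chosen after their values were seen. Members, lists and motifs were chosen with earlier results of these data known. Some genes of the pathway and comparison lists are not reported here.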

Additional observations from a re-analysis of the deposited data

How the results depend on the processing

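The counts of members called over all times (43 as reported) ranged from 40 to 45 over all settings, those higher at 24 h (30 as reported) from 23 to 32, and those lower at 6 h (20 as reported) from 12 to 24. Other counts moved by more than 1.5 times. With library size only, 1 member was higher and 12 were lower at 3 h (5.94% and 14.0% of all genes). Without a filter 1 was higher at 3 h (4.82%) and 2 were lower at 12 h (3.90%). From 12 to 24 h 2 were lower without a filter (3.95%). With upper-quartile scaling, which put the median of all genes at -0.09 at 6 h, 3 members were higher and 24 lower at 6 h. All genes then split into 12.3% higher and 19.8% lower at 6 h against 16.9% and 13.2%. From 3 to 6 h 6 members were higher under this scaling (18.6% of all genes). With the length and GC correction, 12 were lower at 3 h (12.8% of all genes) and 3 were higher at 6 h (16.6%). Under this correction 4 were lower at 12 h (8.06%) and 1 was higher from 1 to 3 h (6.98%). From 3 to 6 h 2 were higher (21.0%), and from 6 to 12 h 1 was lower (15.5%). Under the same correction EIF2AK2, SAMD9 and SAMD9L reversed from 3 to 6 h, to -0.10, -0.02 and -0.02, with or without the replicate block. With replicates 2 and 3 averaged at 6 h and 24 h, 3 were higher at 6 h (9.41% of all genes). From 3 to 6 h 5 were then higher (17.5%), and from 6 to 12 h 13 (4.53%). From 12 to 24 h 0 were lower (1.16%). From 1 to 3 h, 1 was higher with RLE scaling, a mean count of at least 10, DESeq2 or unrounded counts. The share of all genes higher was then 3.47%, 3.59%, 4.23% and 3.20% in turn. When only the 2 times compared were fitted, 2 were lower (0.806% of all genes). Leaving out 1 library gave these ranges against 0 h: at 1 h 0 higher and 0 lower; at 3 h 1 to 2 higher and 5 to 10 lower; at 6 h 2 to 7 and 12 to 21; at 12 h 5 to 9 and 1; at 24 h 23 to 32 and 2 to 3. Between neighbouring times they were 0 to 1 and 2 to 7 from 1 to 3 h, 4 to 11 and 10 to 14 from 3 to 6 h, 13 to 20 and 0 to 1 from 6 to 12 h, 15 to 24 and 0 to 2 from 12 to 24 h, and 40 to 44 over all times. The cause of these shifts was not tested. The lone 1 h library that remained in 2 of these fits was assumed to vary like the other groups. Replicate numbers did not pair the samples (r of deviations above 0.1 in 8 of 40 same-numbered pairs, from -0.20 to 0.21). The replicate block gave 31 higher and 3 lower at 24 h, 5 and 19 at 6 h, and 1 higher from 1 to 3 h. Of all genes it called 18.3% and 17.2%, 17.2% and 13.3%, and 3.73% in turn. The block with the length and GC correction gave 11 lower at 3 h, 3 higher at 6 h and 4 lower at 12 h. Of all genes it called 13.2%, 17.1% and 8.33%. It gave 1 higher from 1 to 3 h (7.62% of all genes) and 2 higher from 3 to 6 h (21.1%). From 6 to 12 h it gave 1 lower (15.9%), and from 12 to 24 h 2 lower (8.62%). Genes with few counts, such as OAS1, IFI44L, RSAD2 and USP18, had standard errors from 0.232 to 0.374 on the log2 scale, which limits what could be detected in them at this depth.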
